A study of Drosophila melanogaster with 73 samples.

Results

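Transcript levels at midday were compared with those at midnight in abdominal fat bodies of female flies kept at 25°C. Libraries were chosen by their labels alone. The midday libraries were those sampled at ZT04, ZT06 and ZT08 of days 4 and 5, where zeitgeber time (ZT) counts hours from lights on. The midnight libraries were those sampled at ZT16, ZT18 and ZT20. This gave 7 midday and 7 midnight libraries, which is 14 of the 73 libraries of the series. Of 23932 genes in the deposited table, 7217 had a median above 5 TPM (the share of a library's transcripts, scaled to a fixed total) over these 14 libraries and were tested.

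All flies were mated females of Iso31, an isogenic w1118 strain. They had been aged for 3 days with males and entrained for 3 days to equal hours of light and dark on a sucrose-yeast diet. At about 7 days old, a part of the flies was moved to 18°C, and the flies compared here were the controls left at 25°C. Day numbers count from that shift, so no fly in this comparison had changed temperature. Each library pooled the fat tissue of several flies, collected attached to the abdominal epidermis after gut, ovaries and Malpighian tubules had been taken out. The series also holds 8 dusk libraries (ZT10 to ZT14) and 4 dawn libraries (ZT22 to ZT02) at 25°C, and 7 midday and 6 midnight libraries of flies settled at 18°C, which are used below as further descriptions. The labels name no batch and do not say whether replicate numbers stand for separate cultures, so the p-values measure the spread between these libraries, some of which may be technical.

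The fat body is the fly's organ of energy storage, of much of its intermediary metabolism and of the secretion of blood proteins, and it carries its own circadian clock. In that clock the transcription factors CLK and CYC activate the genes for their own repressors, PER and TIM, whose transcripts build up in the evening and night. A coupled loop runs through vri and Pdp1, whose products repress and activate transcription of Clk. Enzymes of lipid and sugar metabolism are among the best known genes whose levels change over the day in this tissue.

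The libraries differed in their content of other tissues. Genes with a TPM above 0 numbered 11629 to 12588 in midday libraries and 11506 to 12279 in midnight libraries, and pairwise correlations over the tested genes lay between 0.915 and 0.979. Fat body markers (8 genes, among them yolk protein and lipophorin genes) summed to between 28550 and 42259 TPM at midday and between 31783 and 50541 TPM at midnight. The 7 fat body markers tested all had negative midday minus midnight differences (median -0.36). Positive differences were found for 12 of 12 tested muscle markers (median 0.17), 5 of 5 haemocyte markers (median 0.27), 4 of 4 germline markers (median 0.18) and 5 of 6 gut markers (median 1.52), and negative ones for 4 of 5 oenocyte and 4 of 5 Malpighian tubule markers (median -0.04 each). Of all these markers limma called 0, and 3 fat body markers had an unadjusted p under 0.05. The part of fat body, muscle and haemocyte content in the results that follow was not tested. Oenocyte markers, of cells that lie beside the fat tissue, had similar sums in both groups (21054 to 27820 TPM at midday, 20548 to 28870 TPM at midnight). Gut digestive enzymes (18 genes) were high in 2 midday libraries (8215 and 7597 TPM) and in 1 midnight library (14944 TPM), against a median of 97.1 TPM at midday and 51.7 TPM at midnight. Eggshell genes (11 genes) reached 1.72 to 87.9 TPM at midday and 0.06 to 757 TPM at midnight, with 4 midnight libraries at 155 TPM or more. None of the 18 gut or 11 eggshell markers was at 0 throughout a group. Neuronal markers (5 genes) summed to between 5.81 and 15.6 TPM at midday and between 6.70 and 12.9 TPM at midnight. In bulk libraries such as these, fewer cells of a type and less RNA per cell cannot be told apart.

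At an adjusted p under 0.05 in limma, 50 genes differed between midday and midnight. Of these, 24 were higher at midday (0.333% of the genes tested) and 26 were higher at midnight (0.360%). Differences are midday minus midnight in log2(TPM + 1), where the added 1 shrinks the differences of genes with low levels. They were large for few genes, since 7 genes were higher at midday and 8 were higher at midnight by at least 1 log2 unit. The median difference was 0.84 over the 24 genes higher at midday and -0.69 over the 26 genes higher at midnight, against 0.01 over all genes tested. An unadjusted p under 0.05 was reached by 865 genes (380 higher at midday, 485 higher at midnight). The midday and the midnight libraries did not overlap for 50 tested genes (0.693%), of which 32 were among the 50 genes called.

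**Figure D1:**
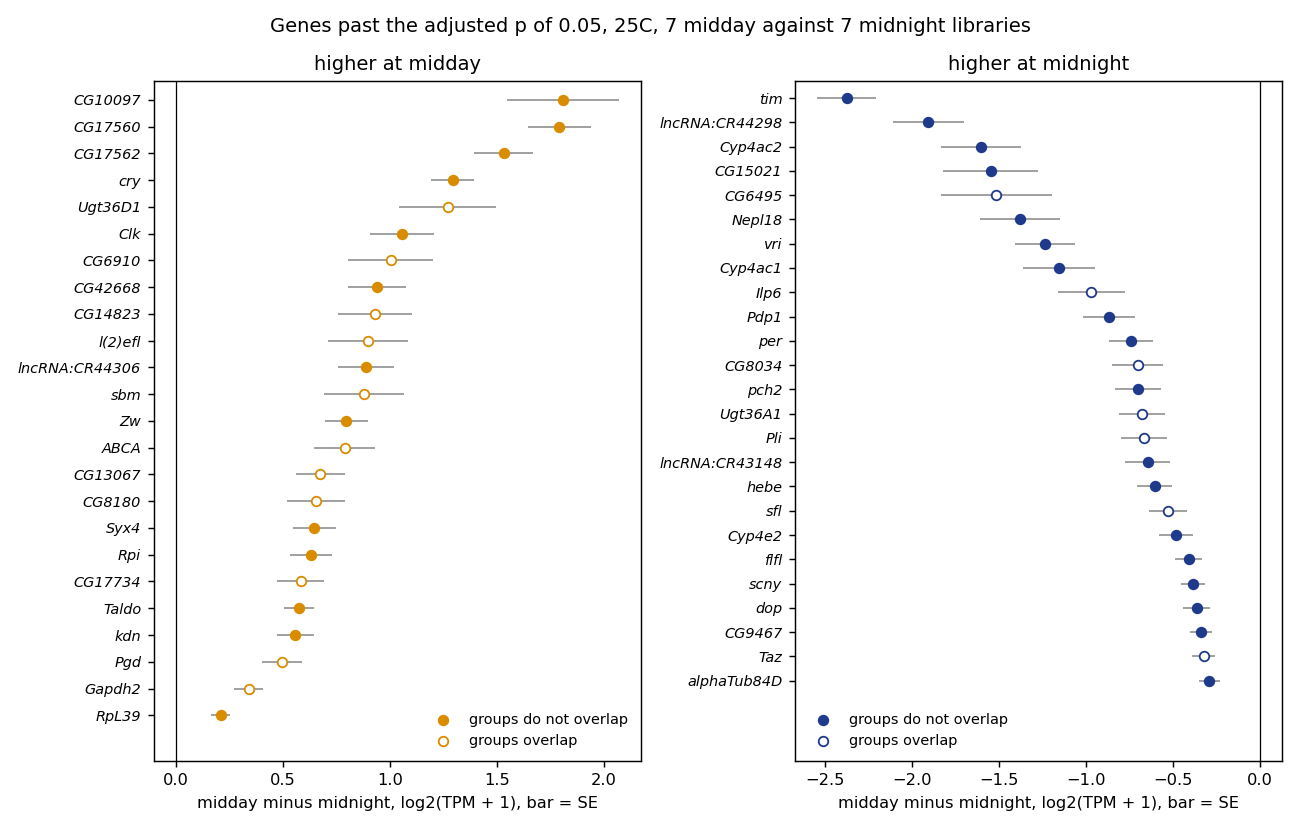
Midday minus midnight differences on the log2(TPM + 1) scale for 49 of the 50 genes with an adjusted p under 0.05 at 25°C, with 24 genes higher at midday on the left and 25 genes higher at midnight on the right. Points are limma estimates from 7 midday and 7 midnight libraries, bars are 1 SE, and filled points mark the 31 genes shown whose groups did not overlap. The largest differences were those of CG10097 and CG17560 at midday and of tim and lncRNA:CR44298 at midnight.

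Of the 8 clock genes, all of them tested, 6 passed the threshold, 4 higher at midnight and 2 higher at midday. The repressor gene tim (timeless, FBgn0014396, chromosome 2L, 3493986 to 3508119) had a lowest, median and highest level of 19.03, 29.6 and 41.4 TPM at midday, against 138, 149.95 and 200.0 TPM at midnight. All midnight libraries were thus above all midday libraries. Its difference of -2.38 (SE 0.17, limma adjusted p = 5.28e-06) was the largest of any gene called. Its partner per (period, FBgn0003068, chromosome X, 2685580 to 2692780) was expressed at a much lower level, with 4.36, 7.02 and 8.03 TPM at midday and 9.51, 11.3 and 13.9 TPM at midnight. The groups did not overlap for per either, and its difference was -0.74 (SE 0.13, limma adjusted p = 0.0122). Exons of tim share bases with a long noncoding RNA gene on the other strand and those of per with dyw, so part of their reads cannot be assigned in non-stranded libraries.

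The loop genes vri and Pdp1 were also higher at midnight. The repressor gene vri (vrille, FBgn0016076, chromosome 2L, 5288944 to 5311223) had 33.3, 50.2 and 65.2 TPM at midday and 81.9, 112 and 148 TPM at midnight, a difference of -1.23 (SE 0.17, limma adjusted p = 0.00347). The activator gene Pdp1 (PAR-domain protein 1, FBgn0016694, chromosome 3L, 7811458 to 7867369) had 28.8, 42.7 and 62.0 TPM at midday and 64.4, 78.9 and 101 TPM at midnight (difference -0.87, SE 0.15, limma adjusted p = 0.0128). Neither gene had overlapping groups, although the lowest midnight library of Pdp1 lay just above its highest midday library.

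Clk and cry had the opposite order. The activator gene Clk (Clock, FBgn0023076, chromosome 3L, 7763233 to 7775603) had 10.4, 14.6 and 17.9 TPM at midday and 4.86, 6.38 and 10.1 TPM at midnight (difference 1.06, SE 0.15, limma adjusted p = 0.00347). The photoreceptor gene cry (cryptochrome, FBgn0025680, chromosome 3R, 19212154 to 19215442) had 150.0, 175 and 183 TPM at midday and 59.5, 67.0 and 101 TPM at midnight (difference 1.29, SE 0.10, limma adjusted p = 1.00e-05). Both were higher in all 7 midday libraries than in any midnight library. Exons of cry share bases with vib on the other strand.

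The remaining clock genes did not pass the threshold. The partner of CLK, cyc (cycle, FBgn0023094), averaged 32.7 ± 2.50 TPM at midday and 29.5 ± 3.28 TPM at midnight (SD, n = 7 each; limma adjusted p = 0.484). The repressor gene cwo (clockwork orange, FBgn0259938) averaged 34.5 ± 3.82 TPM at midday and 42.7 ± 8.86 TPM at midnight (SD, n = 7 each; limma adjusted p = 0.364). Of 11 tested clock kinases, phosphatases and partners, such as dco (doubletime) and sgg (shaggy), which set the pace of PER and TIM turnover, 0 were called by limma, 0 reached an unadjusted p under 0.05, and their differences lay between -0.13 and 0.07.

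**Figure D2:**
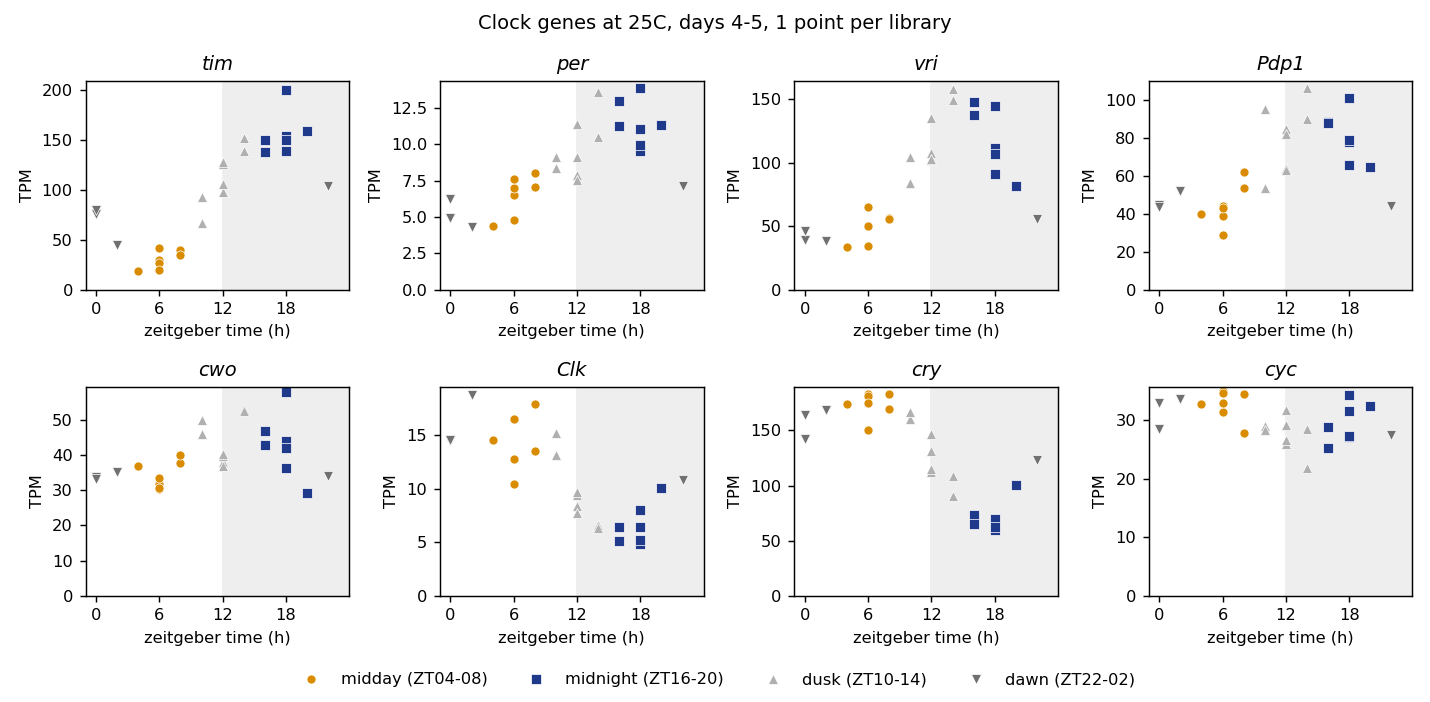
Levels of 8 clock genes (TPM, vertical axes from 0) in all 26 libraries at 25°C on days 4-5, against zeitgeber time in hours, with the dark hours shaded. Each point is 1 library, with midday libraries as circles, midnight libraries as squares, dusk libraries as upward triangles and dawn libraries as downward triangles. For tim the midday libraries lay between 19.03 and 41.4 TPM and the midnight libraries between 138 and 200.0 TPM, whereas cyc showed little change.

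Each window spans several hours, and levels changed within it. The midnight window held 2 libraries at ZT16, 4 at ZT18 and 1 at ZT20. In the ZT20 library cry stood at 101 TPM, against at most 73.0 TPM in the other midnight libraries, and Clk at 10.1 TPM, against at most 8.02 TPM. In the same library vri was at 81.9 TPM, the lowest of the midnight group. In that library these genes thus lay nearest to their midday levels. A difference of the hour and a difference of that 1 library cannot be told apart. Outside both windows, vri was highest at ZT14 (mean 154 TPM, 2 libraries) and cry was still at 164 TPM at ZT10 (2 libraries).

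Among the lists of metabolic genes, that of the pentose phosphate pathway held the most genes higher at midday. This pathway oxidises glucose 6-phosphate to give NADPH, which fatty acid synthesis uses, and ribose for nucleotides. All 10 listed enzymes of the pathway and of other NADPH-producing reactions were tested, and 4 were higher at midday and 0 lower. The median difference of the list was 0.38, against 0.01 over all genes, and 9 of the 10 differences were positive.

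Zw (FBgn0004057, chromosome X, 19667252 to 19672353), the glucose-6-phosphate dehydrogenase at the entry of the pathway, had 177, 234 and 271 TPM at midday and 111, 135 and 159.5 TPM at midnight. All midday libraries were above all midnight libraries, and the difference was 0.80 (SE 0.10, limma adjusted p = 0.00106). Pgd (FBgn0004654), the 6-phosphogluconate dehydrogenase that makes the next NADPH, lay outside the naming rule and is given to complete the list's calls. It had 543, 649 and 803 TPM at midday and 420.1, 446 and 570.1 TPM at midnight, with overlap of the groups (difference 0.50, SE 0.09, limma adjusted p = 0.0249). The call held in 8 of the 14 fits that each left out 1 library.

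In the non-oxidative branch, Rpi and Taldo were higher at midday. Rpi (ribose-5-phosphate isomerase, FBgn0050410, chromosome 2R, 23355183 to 23356441) had 204, 246 and 298 TPM at midday and 129, 162 and 191 TPM at midnight (difference 0.63, SE 0.10, limma adjusted p = 0.00645). Taldo (transaldolase, FBgn0023477, chromosome 2R, 23940410 to 23942114) had 807, 861 and 922 TPM at midday and 502, 586 and 698 TPM at midnight (difference 0.57, SE 0.07, limma adjusted p = 0.00106). Neither gene's groups overlapped. The transketolase CG8036 (difference 0.36, limma adjusted p = 0.0658), the 6-phosphogluconolactonase CG17333 (difference 0.40, limma adjusted p = 0.0649) and Rpe (difference 0.31, limma adjusted p = 0.242) did not pass. The other sources of NADPH in the list, the malic enzymes Men (difference 0.06) and Men-b (difference 0.27) and the isocitrate dehydrogenase Idh (difference -0.02), did not pass either. Exons of Zw, Pgd and Rpi share bases with neighbouring genes.

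Of 15 tested genes of glycolysis and gluconeogenesis, Gapdh2, a glyceraldehyde-3-phosphate dehydrogenase, was the 1 gene called. It had 736, 869 and 963 TPM at midday and 614, 700.1 and 755.5 TPM at midnight, a difference of 0.34 (SE 0.07, limma adjusted p = 0.0276) with overlapping groups. The call was lost after rescaling each library by its median ratio to the others (limma adjusted p = 0.108), and it held in 6 of the 14 fits that each left out 1 library. Another 6 members had an unadjusted p under 0.05, all with positive differences, and the list's median was 0.18. Such a p with a positive difference was reached by 380 of all 7217 genes tested. Among genes outside the lists, kdn (chromosome X, 6350629 to 6361323), the citrate synthase that starts the citric acid cycle, had 352, 417 and 438 TPM at midday and 238, 266 and 339 TPM at midnight. The groups did not overlap, and its difference was 0.56 (SE 0.09, limma adjusted p = 0.00703).

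**Figure D3:**
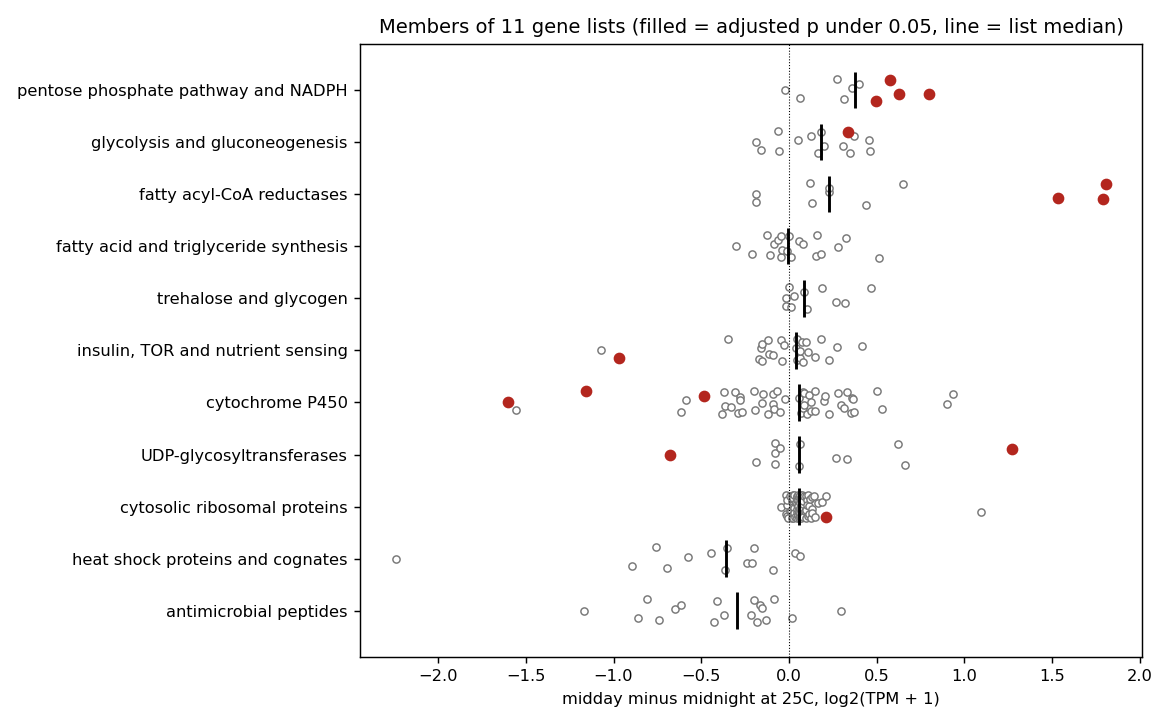
Midday minus midnight differences at 25°C on the log2(TPM + 1) scale for the tested members of 11 gene lists. Each point is a gene, filled points have an adjusted p under 0.05, and vertical lines mark the list medians. All 4 filled points of the pentose phosphate list and all 3 of the fatty acyl-CoA reductases lie at positive differences, and all 3 of the cytochrome P450 list at negative ones.

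Fatty acyl-CoA reductases gave the 3 largest differences among the genes called higher at midday. These enzymes reduce long-chain acyl-CoA to fatty alcohols, on the route to waxes and hydrocarbons. Of 15 listed genes 11 were tested, 3 of them were higher at midday and 0 lower, and the list's median difference was 0.23. CG17560 (FBgn0038450, chromosome 3R, 16617950 to 16619878) had 1866, 2337 and 3123 TPM at midday and 462, 691 and 939 TPM at midnight. Its midday and midnight libraries lay far apart, and the difference was 1.79 (SE 0.15, limma adjusted p = 1.38e-05).

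CG17562 (FBgn0038449, chromosome 3R, 16615309 to 16617154), which lies 795 bases from CG17560, had 333, 385 and 501 TPM at midday and 99.1, 137 and 197 TPM at midnight. Its difference was 1.53 (SE 0.14, limma adjusted p = 3.20e-05). CG10097 (FBgn0038033, chromosome 3R, 12390166 to 12395980) had 764, 869 and 1209 TPM at midday and 143, 247 and 585 TPM at midnight, the highest midnight value again in the ZT20 library. Its difference of 1.81 (SE 0.26, limma adjusted p = 0.00347) was the largest among the genes called higher at midday. None of the 3 genes had overlapping groups. CG10097 shares its annotated span with CG10096 on the same strand, and reads can be shared within this gene family, so the split between these genes is uncertain. The other 8 tested reductases, among them FarO (difference -0.19) and CG4020 (difference 0.12), did not pass. An unadjusted p under 0.05 in limma was reached by 4 of the 11, all higher at midday (380 of 7217 over all genes). CG10096, which was not called, ranged from 10.1 to 47.2 TPM at midday and from 3.71 to 19.3 TPM at midnight, with overlap of the groups.

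The midday genes of these families differed in the rest of the day, which is given as a description. Zw averaged 215 TPM at dusk (n = 8) and 153 TPM at dawn (n = 4). Taldo averaged 764 TPM at dusk and 583 TPM at dawn. Pgd averaged 669 TPM at dusk and 435 TPM at dawn. In all these pathway genes dusk was nearer to midday and dawn nearer to midnight. The reductases were lower at dusk than at dawn. CG17560 averaged 1239 TPM at dusk and 1476 TPM at dawn, and CG10097 averaged 294 TPM at dusk and 523 TPM at dawn. Over all called genes, 23 of the 24 genes higher at midday had their highest mean of the 4 windows at midday, and 21 of the 26 genes higher at midnight had it at midnight. Of the other 5, 4 were highest at dawn and 1 at dusk. The genes had been chosen by their midday and midnight levels, which favours a highest mean in the window of the call. The dawn window held 1 library at ZT22. There hebe (154 TPM), Cyp4e2 (188 TPM) and Cyp4ac1 (111 TPM) stood above every midnight library. Their highest midnight levels were 108, 141 and 72.9 TPM. Other genes called higher at midnight, such as tim (104 TPM) and vri (55.2 TPM), lay below every midnight library there. With 1 library at ZT22, the hour and the library cannot be told apart.

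**Figure D4:**
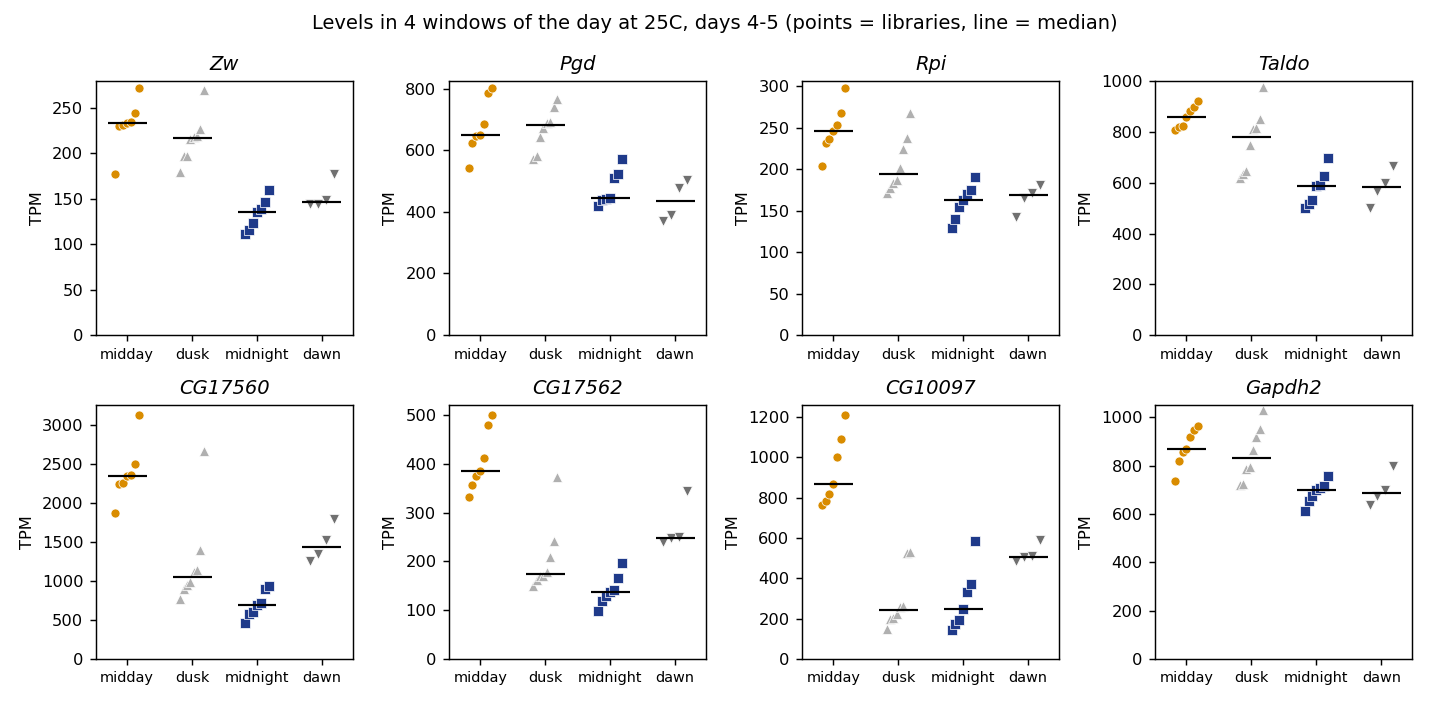
Levels (TPM, vertical axes from 0) of 4 pentose phosphate genes, 3 fatty acyl-CoA reductase genes and Gapdh2 in 7 midday, 8 dusk, 7 midnight and 4 dawn libraries at 25°C on days 4-5. Points are libraries and horizontal lines are medians. The median of Zw was 217 TPM at dusk and 146 TPM at dawn, and that of CG10097 was 241 TPM at dusk and 508 TPM at dawn.

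Detoxification and oxidation genes were found in both directions. Of 53 tested cytochrome P450 genes, a family of monooxygenases, 3 were higher at midnight and 0 at midday, and the list's median was 0.06. At an unadjusted p under 0.05 in limma, 8 were higher at midday and 7 at midnight, against 380 and 485 of all 7217 genes. Cyp4ac2 (FBgn0031694, chromosome 2L, 5266392 to 5268455) had 3.76, 8.10 and 11.2 TPM at midday and 18.6, 20.4 and 44.0 TPM at midnight (difference -1.60, SE 0.23, limma adjusted p = 0.00347). Its neighbour Cyp4ac1 (FBgn0031693, chromosome 2L, 5264001 to 5265899) had 13.3, 21.7 and 30.6 TPM at midday and 34.5, 43.2 and 72.9 TPM at midnight (difference -1.16, SE 0.21, limma adjusted p = 0.0176). Cyp4e2 (FBgn0014469) averaged 85.3 ± 9.14 TPM at midday and 120.2 ± 16.5 TPM at midnight (SD, n = 7 each; difference -0.48, limma adjusted p = 0.0311). The call of Cyp4e2 was lost after rescaling (limma adjusted p = 0.0717), and it held in 4 of the 14 fits without 1 library. Its highest midday library (97.8 TPM) lay just below its lowest midnight library (98.6 TPM). None of the 3 had overlapping groups, and Cyp4ac1 and Cyp4ac2 are neighbouring members of 1 subfamily between which reads may be shared. The third gene of that cluster, Cyp4ac3, which lay outside the naming rule and was looked up after its neighbours' values were seen, had a difference of -0.07 (limma adjusted p = 0.937).

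Of 13 tested UDP-glycosyltransferases, enzymes that attach sugars to small molecules, 1 was higher at midday and 1 at midnight. Ugt36D1 (FBgn0032713) had 70.0, 92.8 and 112 TPM at midday and 24.9, 31.2 and 84.6 TPM at midnight (difference 1.27, SE 0.23, limma adjusted p = 0.0169), with overlap of the groups. Ugt36A1 (FBgn0015663) had 5.29, 5.67 and 8.09 TPM at midday and 7.95, 11.3 and 13.8 TPM at midnight (difference -0.68, SE 0.13, limma adjusted p = 0.0307). Its lowest midnight library was just below its highest midday library, and its exons share bases with CG15418.

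Among 27 tested genes of insulin, TOR and nutrient sensing, the 1 gene called was Ilp6 (FBgn0044047), an insulin-like peptide made in the fat body. It had 26.9, 34.5 and 57.5 TPM at midday and 44.8, 68.1 and 101 TPM at midnight (difference -0.97, SE 0.19, limma adjusted p = 0.0311), and the groups overlapped. The call was lost after rescaling (limma adjusted p = 0.0566), in replicate 1 alone (0.0797) and with all 26 libraries at 25°C in the fit (0.0519), and it held in 3 of the 14 fits without 1 library. Thor, the translation repressor 4E-BP, averaged 1029 TPM at midday and 772 TPM at midnight but did not pass (difference 0.42, limma adjusted p = 0.0610). Of 85 tested cytosolic ribosomal protein genes, RpL39 alone was called, with the smallest difference of any called gene (0.21, SE 0.04, limma adjusted p = 0.0430). Its levels were 3765, 4033 and 4354 TPM at midday and 3137, 3552 and 3734 TPM at midnight. The call was lost after rescaling (limma adjusted p = 0.181) and with all 26 libraries (0.110), and it held in 2 of the 14 fits without 1 library. The differences of 78 of the 85 genes were positive, 21 of them with an unadjusted p under 0.05, but the list's median was only 0.06. Of all 7217 genes tested, 380 were higher at midday at that unadjusted p.

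Several genes outside these lists were higher at midnight by large factors. The long noncoding RNA gene lncRNA:CR44298 (FBgn0265344, chromosome 2R, 10053095 to 10053393) had 28.03, 39.7 and 84.3 TPM at midday and 126, 164 and 247 TPM at midnight (difference -1.91, SE 0.20, limma adjusted p = 0.000236). CG15021 had 13.9, 40.4 and 54.2 TPM at midday and 66.6, 119.6 and 165 TPM at midnight (difference -1.55, SE 0.27, limma adjusted p = 0.0157). Nepl18, a member of the neprilysin family of peptidases, had 13.5, 24.5 and 44.2 TPM at midday and 48.5, 61.6 and 95.2 TPM at midnight (difference -1.38, SE 0.23, limma adjusted p = 0.0109). None of these had overlapping groups.

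Smaller midnight differences without overlap were found for pch2, an ATPase known from the meiotic checkpoint (difference -0.70, limma adjusted p = 0.0222), and for hebe (difference -0.61, limma adjusted p = 0.00921). The genes flfl, a subunit of protein phosphatase 4 (-0.41), scny, a deubiquitinase (-0.39), and CG9467 (-0.34) had smaller differences, with limma adjusted p between 0.0176 and 0.0249. The levels of flfl ranged from 27.2 to 30.4 TPM at midday and from 32.8 to 45.7 TPM at midnight, so that they varied more at midnight.

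At midday the largest differences outside the lists, among called genes without overlap, were those of CG42668 (56.5, 69.5 and 106 TPM at midday, 30.2, 41.0 and 46.4 TPM at midnight; difference 0.94, SE 0.14, limma adjusted p = 0.00347) and lncRNA:CR44306 (9.11, 11.7 and 15.3 TPM at midday, 4.75, 5.15 and 7.64 TPM at midnight; difference 0.89, SE 0.13, limma adjusted p = 0.00347). Syx4, a syntaxin of vesicle fusion, was at 16.5, 18.7 and 22.02 TPM at midday and at 9.53, 11.7 and 14.6 TPM at midnight (difference 0.65, SE 0.10, limma adjusted p = 0.00699). These 3 genes had no overlap between groups. ABCA, a transporter of the ABC family (difference 0.79, limma adjusted p = 0.0176), and CG13067 (difference 0.67, limma adjusted p = 0.0122) passed with overlapping groups.

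In all, 15 called genes fell outside the naming rule. Besides Pgd, those higher at midday were CG6910, CG14823, l(2)efl, sbm, CG8180 and CG17734, with differences between 0.58 and 1.00. Of these, l(2)efl encodes a small heat shock protein and sbm an amino acid transporter. Those higher at midnight were CG6495, CG8034, Pli, lncRNA:CR43148, sfl, dop, Taz and alphaTub84D, with differences between -1.52 and -0.29. Among them Taz encodes tafazzin, which remodels cardiolipin, sfl an enzyme of heparan sulfate synthesis and Pli a Pellino protein of Toll signalling.

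The remaining lists held no called gene in limma. These were 19 of the 27 pathway lists, with 378 tested entries, and their medians lay between -0.36 and 0.09. Over all genes, 50 of the 7217 tested passed and 865 had an unadjusted p under 0.05. With so few calls in all, the lack of a call in a short list says little about its members. In fatty acid and triglyceride synthesis, the pathway that spends NADPH, 0 of 20 tested genes passed (3 with an unadjusted p under 0.05, all higher at midday; median -0.0037). In trehalose and glycogen metabolism 0 of 11 passed (1 unadjusted; median 0.09), and in fatty acid beta-oxidation 0 of 17 (1 unadjusted; median 0.06). The 3 yolk protein genes, the tissue's main export to the ovary, had differences between -0.21 and -0.09 and did not pass.

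The direction of the calls was the same on both days. All 50 differences had the same sign on day 4 alone (3 midday, 4 midnight libraries) and day 5 alone (4 midday, 3 midnight libraries), although these libraries had together chosen the genes. Day 1 at 25°C, which took no part in that choice, had 1 library at ZT06 and 1 at ZT18. There the 24 genes higher at midday had positive differences throughout, with a median of 0.49. The 26 genes higher at midnight had negative ones, with a median of -0.53, while over all tested genes the median was -0.14 and 53.9% kept their sign. Relative to that median, all 24 genes higher at midday lay above it and 25 of the 26 genes higher at midnight below it. The gene tim stood at 16.01 TPM at ZT06 and 147 TPM at ZT18 of day 1, and CG17560 at 1967 TPM and 722 TPM. The values of lncRNA:CR44306 (5.25 TPM at ZT06, 5.22 TPM at ZT18) and of CG17734 (117 TPM at both) were close to equal. With 1 library at each time, no test was made.

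Leaving out the libraries with high gut or eggshell markers left the directions of the differences and their median size nearly as they were, but lowered the number of calls. The genes had been chosen in these same libraries, which favours kept directions and sizes in each such fit. Without the 3 libraries highest in gut markers, all 50 differences kept their sign, at a median of 1.02 times their size, and 28 of the 50 genes passed. Without the 4 midnight libraries highest in eggshell markers, which left 3 midnight libraries, all 50 kept their sign at a median of 0.98 times their size. The 3 left were all of replicate 1, day 4, whereas the midday libraries held both replicates and both days. Eggshell content, replicate, day and the smaller number of libraries cannot be told apart in that fit. There 8 of the 50 passed, namely CG17562, CG17560, tim, Taldo, cry, lncRNA:CR44306, Zw and lncRNA:CR44298. With germline, eggshell and gut marker levels as covariates, all 50 kept their sign at a median of 1.02 times their size, from 0.547 to 1.42 times. The 12 genes that passed there were cry, tim, CG17560, CG17562, CG10097, Zw, Taldo, Cyp4ac2, pch2, CG13067, l(2)efl and lncRNA:CR44298, so that the calls of Clk (limma adjusted p = 0.111), vri (0.162), per (0.230), Pdp1 (0.320) and Rpi (0.125) were lost. The differences of CG8034 (-0.39 in that fit, -0.70 without covariates) and dop (-0.23 and -0.37) moved by over 1.5 times. After rescaling each library 43 of the 50 passed, all but Gapdh2, RpL39, CG6495, Ilp6, Pli, sfl and Cyp4e2. With each library left out in turn, 24 of the 50 genes passed in all 14 fits, among them tim, per, vri, Pdp1, Clk, cry, Zw, Rpi, Taldo, CG17560, CG17562, CG10097, Cyp4ac1, Cyp4ac2 and lncRNA:CR44298.

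The same contrast was then set against flies settled at 18°C, to ask whether the midday to midnight difference depended on temperature. Over all tested genes the median difference at 18°C was -0.15 as deposited and -0.01 when each library was rescaled by its median ratio to the others, so signs at 18°C are given on both scales. In the 18°C libraries alone 3 genes passed in limma (0.0416%; 1427 at an unadjusted p under 0.05), of which cry and Ugt36D1 were also among the 50 genes called at 25°C. Of the 24 genes higher at midday at 25°C, 20 had positive differences at 18°C as deposited and 22 after rescaling. Of the 26 genes higher at midnight at 25°C, 19 had negative differences at 18°C as deposited and 17 after rescaling. Over all tested genes 58.1% kept their sign as deposited and 58.8% after rescaling.

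The difference between temperatures, tested as an interaction in limma, passed for 5 of 7217 genes (0.0693%; 1081 at an unadjusted p under 0.05). The 5 genes also passed after rescaling. For tim, the difference at 25°C minus that at 18°C was -2.18 (SE 0.28, limma adjusted p = 0.000164). At 18°C tim had 36.9, 75.6 and 91.6 TPM at midday and 57.1, 81.0 and 116 TPM at midnight, so its groups overlapped. For vri the interaction was -1.66 (SE 0.27, limma adjusted p = 0.00307), with 69.0, 108 and 129 TPM at midday and 43.2, 80.0 and 91.5 TPM at midnight at 18°C. For lncRNA:CR44298 it was -2.31 (SE 0.34, limma adjusted p = 0.00140), with 159.6, 193 and 429 TPM at midday and 75.3, 189 and 232 TPM at midnight at 18°C. Midday minus midnight at 18°C was -0.20 for tim, 0.43 for vri and 0.41 for lncRNA:CR44298, none of them past the threshold there. A contrast of fixed windows cannot tell a rhythm that is shifted in time from one that is smaller. The paper reports a phase advance, that is an earlier rhythm, of core clock genes, tim and vri among them, at the lower temperature. Dusk and dawn levels at 18°C are not given here, and a loss of rhythm was not tested.

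CG17560 had an interaction of 1.08 (SE 0.21, limma adjusted p = 0.0373). At 18°C it had 1523, 1910 and 3017 TPM at midday and 956, 1203 and 1394 TPM at midnight, a difference of 0.72 (0.86 after rescaling), so that the order was the same and the difference smaller. B4 (FBgn0023407) was not called at 25°C (9.97, 12.5 and 13.6 TPM at midday, 8.10, 9.74 and 13.1 TPM at midnight; limma adjusted p = 0.389), but its interaction was 0.92 (SE 0.16, limma adjusted p = 0.00999). At 18°C it had 9.23, 11.7 and 13.2 TPM at midday and 15.5, 17.6 and 25.8 TPM at midnight, without overlap. The next 2 reductases, CG17562 (interaction 0.89) and CG10097 (interaction 1.49), and CG10096 (interaction 2.84), did not pass as deposited (limma adjusted p = 0.0612 for each). After rescaling, CG10096 passed (adjusted p = 0.0413), and so did Pdp1 (-1.23, adjusted p = 0.0155) and per (-0.95, adjusted p = 0.0394), which had not passed as deposited.

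Genes of the pentose phosphate list and cry had positive differences at 18°C as well. For cry the difference at 18°C was 1.14 (1.29 after rescaling), and its interaction was 0.15 (SE 0.15, limma adjusted p = 0.642). Clk, the other clock gene higher at midday, had a difference of 1.06 at 25°C and 0.09 at 18°C (0.21 after rescaling). Its interaction of 0.97 (SE 0.26) did not pass (limma adjusted p = 0.236). Zw had a difference of 0.74 at 18°C (interaction 0.05, SE 0.18) and Taldo one of 0.61 (interaction -0.03, SE 0.24), with limma adjusted p of 0.916 and 0.961 for the interactions. In the 18°C libraries alone neither Zw (limma adjusted p = 0.210) nor Taldo (0.227) passed. Rpi had a difference of 0.63 at 25°C and 0.29 at 18°C (0.44 after rescaling), with an interaction of 0.34 (SE 0.18). Pgd had 0.50 at 25°C and 0.36 at 18°C (0.51 after rescaling), with an interaction of 0.14 (SE 0.18). Neither of these interactions passed (limma adjusted p = 0.359 for Rpi and 0.727 for Pgd). Over the 10 pentose phosphate and NADPH genes the median difference was 0.38 at 25°C and 0.33 at 18°C (0.47 after rescaling). A p that misses the threshold does not show that the temperatures were alike.

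**Figure D5:**
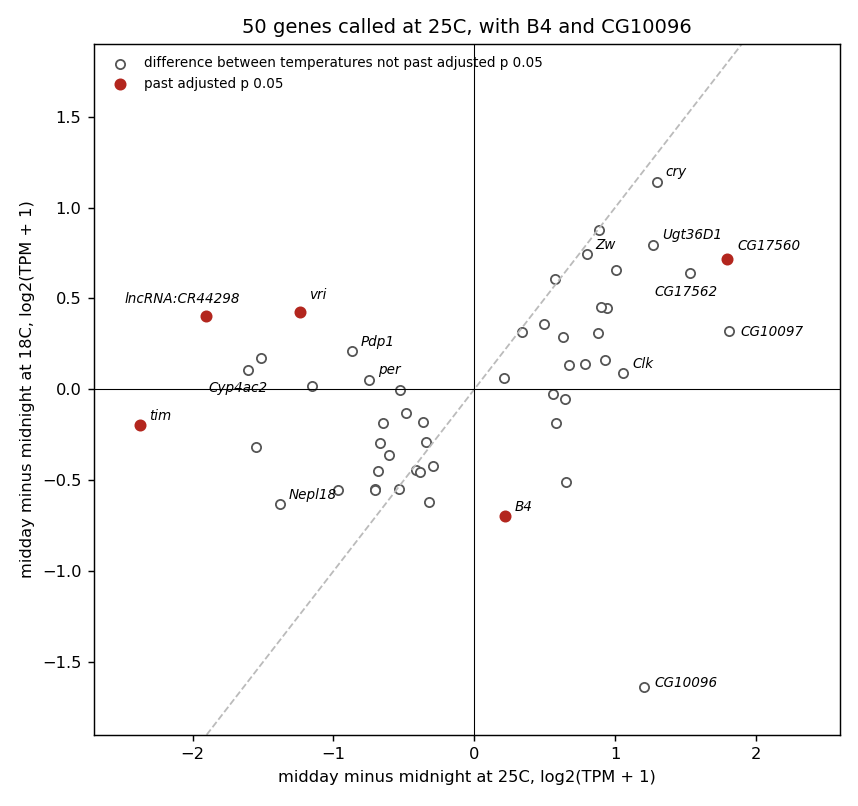
Midday minus midnight differences on the log2(TPM + 1) scale at 25°C (horizontal axis, 7 against 7 libraries) and at 18°C (vertical axis, 7 against 6 libraries) for the 50 genes called at 25°C and for B4 and CG10096. The dashed line marks equal differences and filled points are the 5 genes with an adjusted interaction p under 0.05. The genes tim, vri and lncRNA:CR44298 lie far left of the line near or above 0 on the vertical axis, and cry and Zw lie close to the line.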

How the data were processed

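Abdominal fat bodies were profiled by bulk RNA-seq. According to the labels and the methods, polyadenylated RNA went into non-stranded libraries, and the authors used STAR 2.7.10a and RSEM (named in the submitters' processing notes) with the BDGP6 build to obtain the TPM values they deposited as a single table. The study's methods state that its own analyses used reads from which duplicates had been removed. Whether the deposited table is that version is not given in the sources used here. TPM keeps no depth, so no counting error is given, and precision rests on the number of libraries. Since TPM are shares, an increase of abundant transcripts lowers the values of all others. Each column was matched to 1 sample by its title, and 0 columns were left over.

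Genes with a median TPM above 5 over the 14 libraries were tested with limma 3.58.1 in R 4.3.3 (lmFit, eBayes with trend, 2-sided) on log2(TPM + 1), midday minus midnight, with Benjamini-Hochberg adjustment over all tested genes and a threshold of 0.05. The interaction with temperature used the same settings in 27 libraries (25°C and 18°C, midday and midnight). Tables were made in Python 3.11.15. Positions come from the Ensembl annotation BDGP6.54, which held 7189 of the tested genes. The limma test of midday against midnight at 25°C was tried on simulated data. There the noise was drawn independently for each gene and library, so effects that many genes of a library share were left out. Alternatives changed the pseudocount, the filter, the scaling, the model terms, the weights and the libraries. The comparison, its gene lists and its tests were chosen with earlier results of these data known.

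The text names the 8 clock genes. In each direction it names the 10 genes with the largest difference among those with an adjusted p under 0.05, a mean of at least 5 TPM in the higher group and no overlap of groups, and 5 further genes with the smallest p. It also names up to 3 called members of each list and the 5 genes outside the clock whose interaction p was smallest. Names outside this rule are marked, and 1 gene within it is not reported here. Members of a list that are named without a call illustrate its other values.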

Additional observations from a re-analysis of the deposited data

Results flagged for a closer look

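Within the groups of 7 libraries, 11 of 108 group-by-gene sets examined had a library whose gap to its nearest neighbour was too large a share of the group's range by Dixon's criterion on the log2(TPM + 1) scale, where chance gives about 1 in 20. The values that follow are these gaps as a share of the range. The midday library of replicate 2, day 5, ZT06, which was among the 3 libraries high in gut markers, was the lowest of its group for 6 genes, namely CG15021 (0.694), CG13067 (0.634), sbm (0.616), Zw (0.607), cry (0.601) and l(2)efl (0.584). Its levels were 13.9 TPM against 35.9 TPM in the next library for CG15021, 177 against 230 TPM for Zw and 150.0 against 169 TPM for cry. The part of gut RNA in these values was not tested. Without that library limma called 38 genes higher at midday and 40 higher at midnight.

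The midnight library of replicate 1, day 4, ZT20, the only one at that hour, was the highest of its group for cry (0.613, 101 TPM against 73.0 TPM in the next) and the lowest for Pli (0.584, 32.1 against 51.5 TPM). The other flagged libraries were the midnight library of replicate 1, day 5, ZT18 for tim (0.632, 200.0 against 158 TPM), and the midday library of replicate 2, day 4, ZT06 for CG9467 (0.741, 21.3 against 23.5 TPM) and lncRNA:CR44298 (0.592, 84.3 against 44.0 TPM). In each of the last 3 genes the midday and midnight libraries did not overlap. For tim and CG9467 the flagged library lay on the side away from the other group, so it could not bring an overlap. For lncRNA:CR44298 it lay on the side of the other group, below the lowest midnight library (126 TPM).

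The midday minus midnight difference depended on temperature in the limma interaction test for tim (-2.18), lncRNA:CR44298 (-2.31), vri (-1.66), B4 (0.919) and CG17560 (1.08), each given as the difference at 25°C minus that at 18°C. Positive interactions were called for 2 genes in the main fit. Many of the fits that left out 1 library called only 1.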

How the results depend on the processing

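Each of the 50 called genes had the same direction under all alternatives in which it was tested, and the number of calls moved. Those fits drew on the libraries in which the genes had been chosen, which favours a kept direction. Rescaling each library called 44 genes higher at midday and 35 higher at midnight, and library weights called 85 at midday and 113 at midnight. With the replicate block the counts were 39 and 45, and all 50 genes passed in that fit. The labels do not say that a replicate number marks a shared batch, and the change from replicate 1 to replicate 2 correlated between midday and midnight over genes (r = 0.654). Among subsets of the libraries, replicate 1 alone called 6 genes at midnight, ZT06 against ZT18 called 3 at midday and 4 at midnight, day 4 alone 1 and 1, and day 5 alone 1 and 2. Marker levels as covariates called 10 at midday and 5 at midnight. Leaving out the gut-high libraries called 15 at midnight. Leaving out the eggshell-high ones, which left midnight libraries of replicate 1, day 4 alone, called 6 at midday and 2 at midnight. Both were chosen after seeing the data, as was rescaling of the 18°C contrast alone.

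With each library left out in turn, the count at midday ranged from 15 to 51 and that at midnight from 11 to 62. The midday count moved by over 1.5 times without the replicate 1, day 4 midnight libraries at ZT16 (15), ZT18 (15) and ZT20 (51), and without the midday library of replicate 2, day 5, ZT06 (38). The midnight count did so without the last 2 (62 and 40). It also did without the midday libraries of replicate 1 at day 4 ZT08 (13), day 5 ZT04 (17) and day 5 ZT08 (14) and of replicate 2, day 4, ZT06 (12). The same held without the midnight libraries of replicate 1 at day 4 ZT16 (16), day 4 ZT18 (12) and day 5 ZT18 (11), and of replicate 2 at day 4 ZT18 (15) and day 5 ZT18 (16). The interaction count of 5 became 15 after rescaling, 9 with the replicate block, 11 in replicate 1 alone and 144 with library weights, and ranged from 4 to 14 with each library left out. It moved by over 1.5 times without the 25°C midnight libraries of replicate 1 at day 4 ZT20 (10) and day 5 ZT18 (9), and without the 18°C libraries of replicate 1 at midnight day 4 ZT18 (9) and midday day 5 ZT04 (14). The causes of these changes were not tested. TPM holds no depth, each window mixes hours, and 15 of the 50 genes share exonic bases with another gene.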

Other observations

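Some called genes lay close together on the chromosomes. Cyp4ac1 and Cyp4ac2 are 492 bases apart, and vri, which was also higher at midnight, starts 20488 bases beyond Cyp4ac2 on chromosome 2L. The reductases CG17562 and CG17560 are 795 bases apart on chromosome 3R. Clk and Pdp1, which had opposite orders, are 35854 bases apart on chromosome 3L, and per and Syx4, which also had opposite orders, are 46308 bases apart on chromosome X. No test of this arrangement was made.

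Heat shock proteins and antimicrobial peptides had medians below 0. Among 14 tested heat shock proteins and cognates, which assist protein folding, 12 had negative differences (median -0.36; 2 with an unadjusted p under 0.05). The chaperone gene Hsp83 averaged 937 TPM at midday and 1279 TPM at midnight (difference -0.44, limma adjusted p = 0.285). Among 18 tested antimicrobial peptide genes 16 had negative differences (median -0.29; 1 with an unadjusted p under 0.05). Over all genes, 865 of the 7217 tested had an unadjusted p under 0.05. The small heat shock gene l(2)efl, which is not in the list, was higher at midday, with 235, 422 and 536 TPM there and 153, 190.4 and 315 TPM at midnight (difference 0.90, SE 0.19, limma adjusted p = 0.0395). Its groups overlapped, and the call held in 2 of the 14 fits without 1 library.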
